A study of Homo sapiens with 4 samples.

Results

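PKM and LDHA encode the enzymes of the last steps of fermentative glycolysis, and the circRNA reads assigned to them were followed through 4 libraries of lung cancer cells. The members are the rows of the deposited circRNA table whose host gene is PKM or LDHA. These are 3 circRNAs of 3840, from 2 of 2279 host genes, 1 circRNA from PKM and 2 from LDHA. Both genes were chosen by their high circRNA counts in these same libraries, so their high ranks are a description and support nothing.

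Sequencing was done on total RNA, after removal of ribosomal RNA, of 2 human lung adenocarcinoma cell lines, A549 and HCC827, and from a drug-resistant derivative of each. A549/DDP (A549/R in the labels) is labelled cisplatin-resistant. HCC827/GR (HCC827/R in the labels) is also labelled cisplatin-resistant, whereas the study's methods call it resistant to gefitinib, a drug that blocks the EGFR kinase, and this name is kept here. According to the methods both were derived by exposure to stepwise doses over months, while A549 and HCC827 are the untreated parental lines. Drug was added to keep up the resistance and was withdrawn before the experiment. The methods give RPMI-1640 with fetal bovine serum for A549 and HCC827, and name no other medium for the resistant lines. There was 1 library per condition. No spread between replicates could be estimated, no test was run, and each difference is one between single libraries. The 95% intervals cover counting error only, and understate it for sums over circRNAs that share reads.

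Glycolysis splits glucose into pyruvate. Pyruvate kinase, of which PKM encodes the muscle-type forms, makes pyruvate and ATP from phosphoenolpyruvate, and PKM is spliced into M1 and M2 forms that differ by 1 exon. Lactate dehydrogenase A, the product of LDHA, turns pyruvate into lactate and restores NAD+, which lets glycolysis run on. Many tumours, lung tumours among them, make lactate even where oxygen is present. A circRNA is a closed RNA ring formed when a splice donor is joined back to an acceptor upstream of it, so that it holds exons that the linear mRNA of its host gene also holds.

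What the counts hold bears on every value of PKM and LDHA. Where 2 exonic circRNAs of a gene are nested, the outer one covers all bases of the inner one. In all 1387 such pairs of the table, the outer circRNA had at least as many counts as the inner one, in each of the 4 libraries. Counts of reads across the back-splice junction alone would not have to follow this order. In LDHA the 2 circRNAs start at the same base, and their counts differed by whole numbers even where both held the same fraction of a read. Reads over shared exons were thus counted for both circRNAs. LDHA also has pseudogenes and the paralogs LDHB and LDHC, and no source used here says how reads that match several copies were counted. This limit holds for PKM too, whose count in HCC827 was not a whole number. Whether a read on these exons came from the ring or from the linear mRNA cannot be told apart in these counts. A value given below, where it is above 0, is therefore the level of the exons that the circRNA covers. The table summed to 1960456 counts in A549/DDP, 1760400 in A549, 1587755 in HCC827/GR and 2098414 in HCC827. HCC827/GR stood apart, with 3266 of the 3840 circRNAs above 0, against 3825 in A549/DDP, 3833 in A549 and 3778 in HCC827. Its host genes above 0 numbered 1947, against 2226 in HCC827. Whether a 0 means exons without reads or a circRNA not listed in that library was not tested.

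The libraries were set against markers of their lines. ALDH1A1, an aldehyde dehydrogenase abundant in A549, had 31969 counts per 1000000 circRNA counts (CPM) in A549/DDP and 39457 in A549, against 122 in HCC827/GR and 11.0 in HCC827. AKR1C1 and AKR1C2, aldo-keto reductases, were also higher in both A549 lines, but CPS1, a urea cycle enzyme on the same list, had 20340 CPM in A549/DDP and 1688 in A549, and 3863 in HCC827/GR and 18718 in HCC827, and so did not separate the lines. EGFR, amplified in HCC827, had 746 in HCC827/GR and 388 in HCC827, against 96.9 in A549/DDP and 77.3 in A549. MET, also set down for HCC827, was high in HCC827/GR alone, with 11540 against 1769 in HCC827, and 1809 in A549/DDP and 1767 in A549. Among 8 epithelial markers only KRT7 and ESRP1 were host genes. KRT7, a keratin, had 574 CPM in A549/DDP and 836 in A549, and 702 in HCC827/GR and 114 in HCC827. ESRP1, an epithelial splicing factor, had 1 count in A549/DDP and 2 in A549, and 610 in HCC827/GR and 176 in HCC827. None of 14 markers of fibroblasts, leukocytes and endothelium was a host gene. Most of the epithelial markers were not host genes either, so this absence says nothing on other cell types.

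The PKM circRNA (circRNA2685) lies on chromosome 15 from 72206728 to 72219110 on the minus strand. It has 7 exons of transcript ENST00000319622, whose summed length, recovered from counts and FPKM, is 1153 bases. This is more than in 82.3% of the 3790 exonic circRNAs, whose median is 562 bases and 4 exons. The introns at its ends are 3540 and 11790 bases long. The exon that separates the M1 and M2 forms was not analysed here. The LDHA circRNAs lie on chromosome 11 on the plus strand. The inner one (circRNA258) runs from 18400837 to 18403811 with 3 exons and 466 bases, and the outer one (circRNA259) from 18400837 to 18405572 with 4 exons and 590 bases. The introns beside the LDHA circRNAs are short, 1289 bases on the low side of both, and 1638 and 1545 bases on the high side. Only 4.84% and 4.15% of exonic circRNAs had a shorter value for the longer of their flanking introns. No source used here names the genome build of these positions. All 3 circRNAs lie within the RefSeq gene of their name on GRCh38.p14, as do 3597 of the 3610 circRNAs of the table whose host symbol is found there.

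The promoters of both genes are shown because the counts of PKM and LDHA moved the same way within each pair of libraries, as described further on. How many other host genes moved in this way was not counted, and a link to the promoters was not tested. RefSeq windows on GRCh38.p14 run from 250 bases before to 50 after a start site. Capitals mark 3 kinds of motif, searched on both strands. These are ACGTG, the core of the hypoxia response element that HIF1 binds, GGGCGG, the GC box bound by SP1, and TGACGTCA, the cAMP response element. The PKM window is chr15:72231141-72231440 (minus strand), and the first of 2 LDHA windows is chr11:18394313-18394612 (plus strand).
PKM: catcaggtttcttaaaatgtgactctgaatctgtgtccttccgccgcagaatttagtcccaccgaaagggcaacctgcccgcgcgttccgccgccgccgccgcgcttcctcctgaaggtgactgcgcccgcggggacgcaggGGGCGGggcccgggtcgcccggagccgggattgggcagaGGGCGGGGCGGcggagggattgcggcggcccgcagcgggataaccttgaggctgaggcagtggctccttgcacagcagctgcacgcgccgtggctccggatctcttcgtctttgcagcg
LDHA: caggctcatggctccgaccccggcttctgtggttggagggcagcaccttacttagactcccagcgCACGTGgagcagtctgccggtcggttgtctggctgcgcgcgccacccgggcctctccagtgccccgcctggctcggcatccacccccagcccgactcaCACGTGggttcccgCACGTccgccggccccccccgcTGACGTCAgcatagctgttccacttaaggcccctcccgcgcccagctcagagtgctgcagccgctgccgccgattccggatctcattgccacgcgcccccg

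The LDHA window holds CACGTG, the E-box bound by MYC and also by other factors, at -185 and -87 from the start site. Each of these also reads as ACGTG on both strands. A further ACGTG lies on the opposite strand at -73, and TGACGTCA lies at -51. The PKM window holds GGGCGG at -108, -69 and -64, of which the last 2 overlap by 1 base, and has no match to the other motifs. The second LDHA window, chr11:18396101-18396400, holds 4 GC boxes on either strand and none of the others. Of 35116 RefSeq windows of this length, 21.4% hold ACGTG on either strand, 7.26% hold CACGTG, 45.0% hold GGGCGG and 1.85% hold TGACGTCA. A match is a run of letters and not a bound site, and no match says only that the letters are not in the window.

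Counts of the PKM circRNA were 22314 in A549/DDP and 29524 in A549, and 17475 in HCC827/GR and 13197.5 in HCC827. Scaled to the circRNA total of each library, these were 11382 CPM in A549/DDP, 16771 in A549, 11006 in HCC827/GR and 6289 in HCC827. Parental A549 thus had the highest level and parental HCC827 the lowest, with both resistant lines between them. A549/DDP was 1.03 times HCC827/GR (95% interval 1.01 to 1.05), the closest neighbours in this order. A549 stood 1.47 times above A549/DDP, and HCC827/GR 1.75 times above HCC827.

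LDHA differed less among the libraries and had another order. Over both of its circRNAs, LDHA had 4806 CPM in A549/DDP and 5801 in A549, and 7732 in HCC827/GR and 4830 in HCC827. HCC827/GR was the highest library, A549 came next, and HCC827 and A549/DDP did not differ beyond counting error, with a ratio of HCC827 over A549/DDP of 1.01 (0.977 to 1.03). The last 2 places depend on the scaling, since HCC827 lay below A549/DDP by aligned bases (0.949), the total without the 10 top host genes (0.944), the median ratio (0.863) and FPKM (0.843). The sum counts reads over the shared exons for both circRNAs, so the intervals of the LDHA sums are too narrow. Taken singly, the inner circRNA had 4027.5 counts in A549/DDP, 4370.8 in A549, 5526 in HCC827/GR and 4283 in HCC827. The outer circRNA had 5393.5 counts in A549/DDP, 5841.8 in A549, 6751 in HCC827/GR and 5853 in HCC827. Both circRNAs were highest in HCC827/GR.

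**Figure D1:**
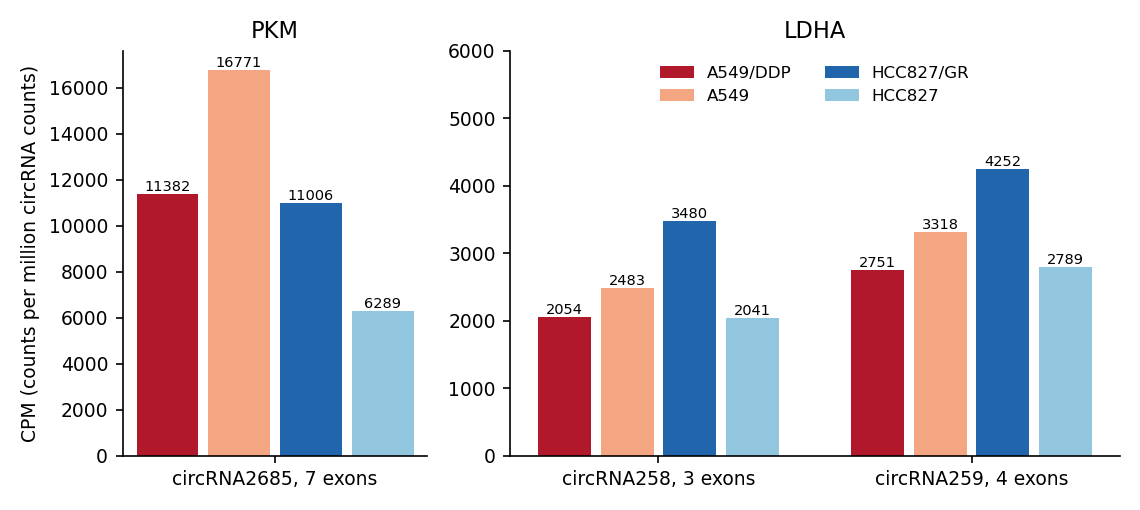
CPM (vertical axes, from 0) of the PKM circRNA on the left and the 2 LDHA circRNAs on the right, 1 bar per library and no replicates. PKM was highest in A549 (16771) and lowest in HCC827 (6289), while both LDHA circRNAs were highest in HCC827/GR (3480 and 4252).

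Per length, PKM was above LDHA in every library. The FPKM of the PKM circRNA was 868 in A549/DDP, 1169 in A549, 674 in HCC827/GR and 403 in HCC827. The FPKM of the outer LDHA circRNA was 410 in A549/DDP, 452 in A549, 509 in HCC827/GR and 349 in HCC827. PKM was therefore 2.12 times LDHA in A549/DDP and 2.59 times in A549, and 1.32 times in HCC827/GR and 1.15 times in HCC827. The gap between both genes was wider in the A549 lines than in the HCC827 lines.

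Among the host genes of a library, ordered by summed count, PKM ranked 6 in A549/DDP and 2 in A549, and 3 in HCC827/GR and 6 in HCC827. LDHA ranked 18 in A549/DDP and 15 in A549, and 7 in HCC827/GR and 16 in HCC827. The host genes above 0 numbered 2266 in A549/DDP, 2274 in A549, 1947 in HCC827/GR and 2226 in HCC827. By the FPKM summed over the circRNAs of a gene, PKM ranked 5 in A549/DDP and 4 in A549, and 7 in HCC827/GR and 13 in HCC827, and LDHA ranked 6 and 7 in the A549 lines, 4 in HCC827/GR and 3 in HCC827. LDHA thus stood above PKM in both HCC827 lines on that scale, where its shared reads count for both circRNAs. A sum favours genes with many circRNAs, and a sum of counts also those with long ones. ASPH, which encodes a hydroxylase of aspartate and asparagine residues and ranked 1 in HCC827/GR, has 7 of them. By the most abundant single circRNA, PKM ranked 2 in A549/DDP, 2 in A549, 1 in HCC827/GR and 3 in HCC827, and LDHA ranked 24, 15, 11 and 17 in the same order. By the highest FPKM of a single circRNA, PKM ranked 2 in both A549 lines, 3 in HCC827/GR and 4 in HCC827, and LDHA ranked 11 in A549/DDP, 12 in A549, 6 in HCC827/GR and 5 in HCC827.

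The genes beside PKM in these orders differed from library to library. In A549/DDP, PKM stood between CYP24A1, a vitamin D hydroxylase with 12117 CPM, and MKI67, a marker of proliferating cells with 9690. In A549 it stood between ALDH1A1 (39457) and ASPH (14800). In HCC827/GR it stood between MET, a receptor tyrosine kinase (11540), and YWHAE, a 14-3-3 protein (9799), and in HCC827 between MYO1E, an unconventional myosin (6412), and PRKDC, the catalytic subunit of DNA-dependent protein kinase (6023). The first 3 ranks were held by ALDH1A1, CPS1 and ASPH in A549/DDP and by ALDH1A1, PKM and ASPH in A549. They were held by ASPH, MET and PKM in HCC827/GR and by CPS1, PABPC1 (a poly(A)-binding protein) and TAOK3 (a protein kinase) in HCC827.

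**Figure D2:**
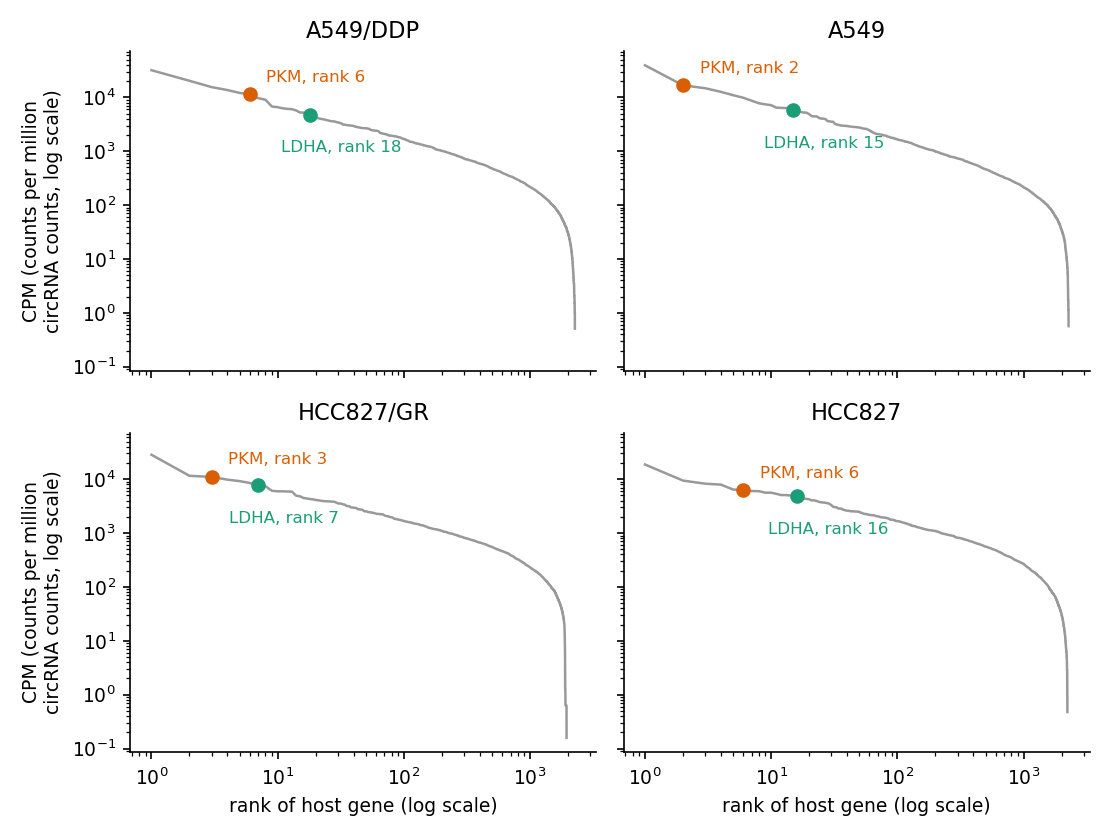
CPM (vertical axis, log scale) of every host gene above 0 against its rank (horizontal axis, log scale), 1 panel per library, with PKM and LDHA as coloured points. By this summed count PKM lay within the first 6 ranks of each library and LDHA between 7 and 18, whereas by summed FPKM LDHA stood above PKM in both HCC827 lines.

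Between A549/DDP and A549, both genes were lower in the resistant line. PKM was 0.679 times the parental level (0.667 to 0.691) and LDHA 0.828 times (0.805 to 0.852). Neither passed a threshold of 2-fold, which 8.39% of 2253 host genes passed as lower and 2.89% as higher, with 3 counts added in each library. The median host gene was 1.02 times its parental level. In log2 ratio, 18.2% of host genes lay below PKM (-0.56) and 31.6% below LDHA (-0.27), where the middle 50% of host genes lay between -0.39 and 0.37. PKM thus stood outside that range and LDHA inside it.

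Between HCC827/GR and HCC827, both genes were higher in the resistant line. PKM was 1.75 times the parental level (1.71 to 1.79) and LDHA 1.60 times (1.56 to 1.64). Again neither passed 2-fold, which 13.2% of 2211 host genes passed as higher and 29.7% as lower. Those called lower include host genes listed at 0 in HCC827/GR. Such host genes also enter the median and the range given next, and no value without them was computed. The median host gene was 0.851 times its parental level here, and the middle 50% spread from -1.30 to 0.49 in log2 ratio. PKM (0.81) and LDHA (0.68) both lay above that range, with 16.6% and 19.9% of host genes above them. Both circRNAs of LDHA were higher in HCC827/GR, the inner one by 1.71 times (1.64 to 1.78) and the outer one by 1.52 times (1.47 to 1.58). The epithelial markers KRT7 and ESRP1 were 6.16 and 4.58 times higher in HCC827/GR as well, and KRT7 was 0.687 times its A549 level in A549/DDP. Their part in the ratios of PKM and LDHA was not tested. In A549/DDP the 2 LDHA circRNAs had nearly one ratio, 0.827 for the inner and 0.829 for the outer.

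**Figure D3:**
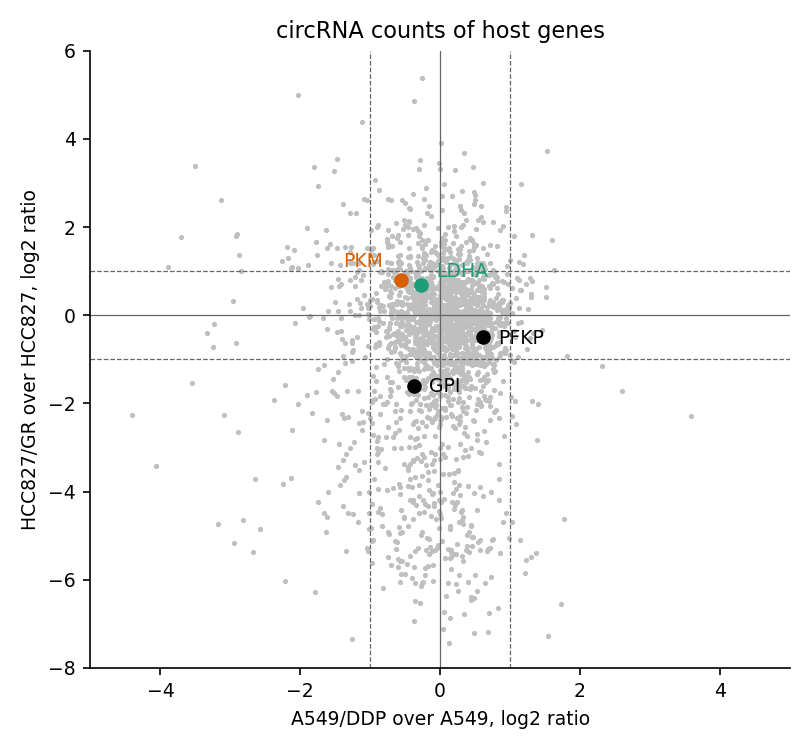
Log2 ratio of scaled circRNA counts with 3 counts added, for HCC827/GR over HCC827 (vertical axis) against A549/DDP over A549 (horizontal axis). Each point is 1 of 2199 host genes with at least 10 counts in each pair, and dashed lines mark 2-fold. PKM at -0.56 and 0.81 and LDHA at -0.27 and 0.68 lie to the upper left, lower in A549/DDP and higher in HCC827/GR.

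The lines were also compared with each other, through the same 4 libraries, so these ratios are not independent of those above. In HCC827, PKM was 0.375 times its level in A549 (0.367 to 0.383), the only one of these ratios past 2-fold. That threshold was passed as lower by 12.6% of 2258 host genes, where 15.9% passed as higher, and 8.28% of them lay below PKM. This balance turned with the median-ratio scaling, under which 208 host genes were higher and 373 lower, against 360 and 284 with the circRNA total. KRT7 was 0.136 times its A549 level in HCC827. ESRP1, the other epithelial host gene, went the other way, with 176 counts in HCC827 against 2 in A549. LDHA was 0.833 times its A549 level in HCC827 (0.810 to 0.856). In HCC827/GR, PKM was 0.967 times its level in A549/DDP (0.948 to 0.986), and LDHA was 1.61 times (1.57 to 1.65). Here 18.8% of 2221 host genes were 2-fold higher and 28.3% lower, and 50.1% lay below PKM. By the circRNA total, the levels of PKM were thus far apart in the parental lines and near each other in the resistant lines. Those of LDHA were nearer in the parental lines on that scale, which depends on the scaling. By the median ratio, LDHA was at 0.686 in HCC827 over A549 and at 1.45 in HCC827/GR over A549/DDP. By FPKM these were 0.764 and 1.30, so both gaps were about the same size. PKM in HCC827/GR over A549/DDP was 0.815 by aligned bases and 0.776 by FPKM.

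Since the outer LDHA circRNA is the inner one plus the fourth exon, of 124 bases, its extra counts were taken as reads that match only the outer circRNA. They would lie on that exon or cross into it from the third one, and crossing reads could not be set apart. Reads across the back-splice of either circRNA could also add to this difference or take from it, since the counter is not known. The extra counts were 1366 in A549/DDP and 1471 in A549, and 1225 in HCC827/GR and 1570 in HCC827. They made up 25.3% of the outer count in A549/DDP (24.2 to 26.5, exact Clopper-Pearson) and 25.2% in A549 (24.1 to 26.3), against 21.0% of its length. In HCC827/GR they made up 18.1% (17.2 to 19.1), against 26.8% in HCC827 (25.7 to 28.0). In 3 of the libraries this share was above that of the length, and in HCC827/GR it was below it. Per base of the fourth exon, the extra counts were 1.27 times the counts per base of the first 3 exons in A549/DDP and 1.26 times in A549, and 0.833 times in HCC827/GR and 1.38 times in HCC827.

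Other nested pairs of circRNAs shifted as much in the HCC827 pair. Over 794 nested pairs that share 1 end and whose outer circRNA had at least 100 counts in each library, the share of the outer circRNA alone changed by a median of 0.0203 percentage points in HCC827/GR against HCC827. The central 90% ran from -31.9 to 24.9, and 29.3% of pairs were at or below the -8.68 of LDHA. In A549/DDP against A549 the central 90% ran only from -7.16 to 7.07, and LDHA was at 0.146.

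**Figure D4:**
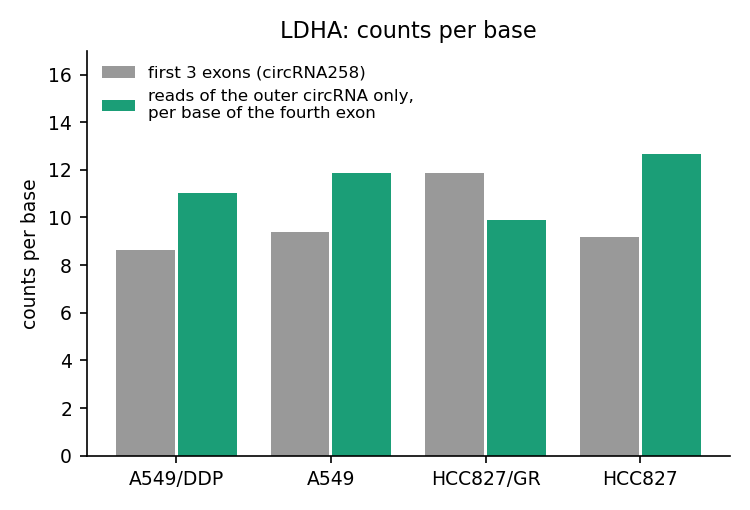
Counts per base (vertical axis, from 0) on the first 3 exons of the LDHA circRNAs (grey) and counts found in the outer circRNA only, per base of the fourth exon (green), by library. The green bar is higher in A549/DDP (11.0 against 8.64), A549 (11.9 against 9.38) and HCC827 (12.7 against 9.19) and lower in HCC827/GR (9.88 against 11.9).

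The rest of glycolysis was thinly covered. Of 25 genes of the pathway, 4 hosted a circRNA, and besides PKM and LDHA these were GPI, the isomerase of glucose 6-phosphate, and PFKP, the platelet form of phosphofructokinase. GPI had 1024 CPM in A549/DDP and 1322 in A549, a ratio of 0.774 (0.729 to 0.822), and 186 in HCC827/GR and 572 in HCC827, a ratio of 0.326 (0.286 to 0.371). PFKP was 1.54 times its A549 level in A549/DDP (1.42 to 1.67) and 0.704 times its HCC827 level in HCC827/GR (0.622 to 0.797). PFKP thus differed from its parental lines in the opposite sense to PKM and LDHA, and GPI was lower in both resistant lines. None of the 4 was past 2-fold in A549/DDP, where 2.89% of all host genes were higher and 8.39% lower. In HCC827/GR, 1 of the 4, GPI, was past 2-fold lower and none higher, beside 29.7% and 13.2% of all host genes. The median log2 ratio of the 4 was -0.32 in A549/DDP and 0.09 in HCC827/GR, beside 0.03 and -0.23 over all host genes. None of 5 genes that make or break fructose 2,6-bisphosphate, the activator of phosphofructokinase, was a host.

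Of 14 genes of glucose and lactate transport, 2 hosted a circRNA. SLC16A1, the lactate carrier MCT1, had 138 CPM in A549/DDP and 71.0 in A549, and 212 in HCC827/GR and 235 in HCC827. Its ratios were 1.95 (1.57 to 2.43) in A549/DDP and 0.899 (0.780 to 1.03) in HCC827/GR, and neither was past 2-fold. SLC2A13, a carrier of myo-inositol, had 15 counts in A549/DDP and 53 in A549, and was listed at 0 in HCC827/GR against 306 in HCC827. It was past 2-fold lower in both resistant lines, 1 of the 2 hosts in each pair, beside 8.39% of all host genes in A549/DDP and 29.7% in HCC827/GR.

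Pyruvate that is not reduced by LDHA can enter mitochondria through the mitochondrial pyruvate carrier, and in the matrix the pyruvate dehydrogenase complex, which the PDK kinases switch off, turns it into acetyl-CoA. Of 14 genes of these steps, 4 were hosts. PDK1 had 123 CPM in A549/DDP and 185 in A549, a ratio of 0.665 (0.560 to 0.787), and 866 in HCC827/GR and 370 in HCC827, a ratio of 2.34 (2.14 to 2.56). It was the only one of the metabolic host genes past 2-fold higher in either resistant line. PDK1 also lay on the same side of 1 as PKM and LDHA in both pairs, but the share of all host genes that did so was not counted. PDK4 was lower in both, by ratios of 0.364 (0.345 to 0.384) and 0.406 (0.378 to 0.436). PDHX, a structural subunit of the complex, was 0.968 times its A549 level in A549/DDP (0.878 to 1.07) and 0.296 times its HCC827 level in HCC827/GR (0.258 to 0.338). DLAT, the acetyltransferase subunit, had ratios of 1.40 and 0.596. In all, 1 of the 4 was past 2-fold lower in A549/DDP, beside 8.39% of all host genes. In HCC827/GR 1 of the 4 was higher and 2 lower, beside 13.2% and 29.7% of all host genes.

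The citrate cycle and the pentose phosphate pathway had 5 of 20 and 1 of 9 genes as hosts, and none was past 2-fold in either resistant line, where 2.89% of all host genes were higher and 8.39% lower in A549/DDP, and 13.2% higher and 29.7% lower in HCC827/GR. SUCLA2, SUCLG2 and SDHB, subunits of succinyl-CoA synthetase and succinate dehydrogenase, lay above 1 in both pairs, between 1.14 and 1.61 times. OGDH, the E1 subunit of the 2-oxoglutarate dehydrogenase complex, was 0.708 times its A549 level in A549/DDP and 0.503 times its HCC827 level in HCC827/GR. CS, which encodes citrate synthase, lay within counting error of 1 in both. PGD, an enzyme of the pentose phosphate pathway, differed between the lines and little within them, with 2179 CPM in A549/DDP and 2365 in A549, against 203 in HCC827/GR and 213 in HCC827.

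Of 9 genes known to splice PKM or to drive glycolytic genes, HIF1A and HNRNPA1 were hosts. HIF1A, the oxygen-regulated subunit of HIF1, ranked 14 in A549/DDP and 4 in A549, and 14 in HCC827/GR and 21 in HCC827. Over 6 circRNAs that share reads, it had 5721 CPM in A549/DDP and 12688 in A549, a ratio of 0.451 (0.441 to 0.461), which was past 2-fold lower as were 8.39% of all host genes. In HCC827/GR it had 4938 and in HCC827 4044, a ratio of 1.22 (1.18 to 1.26). As with PKM, A549 was its highest library and HCC827 its lowest. HNRNPA1, a splicing repressor that acts on PKM, had 1823 in A549/DDP and 1659 in A549, and 1484 in HCC827/GR and 1677 in HCC827.

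**Figure D5:**
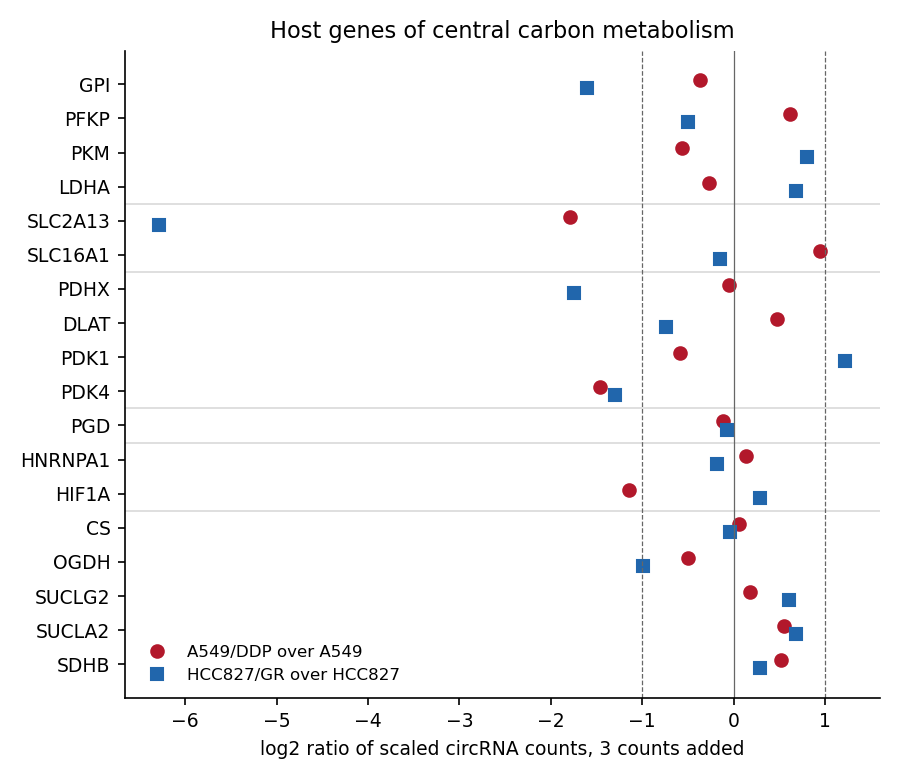
Log2 ratio (horizontal axis) of scaled circRNA counts with 3 counts added, for each metabolic host gene and the 2 regulators HNRNPA1 and HIF1A, as circles for A549/DDP over A549 and squares for HCC827/GR over HCC827. Dashed lines mark 2-fold, grey lines separate the gene lists, and SLC2A13 was at 0 counts in HCC827/GR, so its square depends on the added counts. PKM, LDHA and PDK1 have their circle left of 0 and their square right of 0, and so does HIF1A. The share of all host genes with this combination was not counted.

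Host genes with the most similar pattern were ranked by the root mean square difference of log2 CPM plus 3, centred on the mean of the 4 libraries, among 2223 host genes with at least 50 counts in all. Those nearest to PKM were WWC1 (0.0667), PLCH1 (0.0860), GRB2 (0.0909), NCOA3 (0.0943) and VEZT (0.100), where the median host gene was at 0.830. WWC1 had 431 CPM in A549/DDP and 634 in A549, and 423 in HCC827/GR and 264 in HCC827. Those nearest to LDHA were FOXP1 (0.0655), C8orf76 (0.0715), GOSR1 (0.0732), NCOR1 (0.0776) and KANSL1 (0.0803), with the median at 0.586. LDHA was number 247 in the list of PKM, at 0.484, and PKM number 828 in that of LDHA. With 4 libraries and so many genes, near patterns are a description only.

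The lncRNA table of the same libraries gives a further readout of both loci. It holds 1 unannotated single-exon transcript named PKM (MSTRG.33449.1, chromosome 15 from 72208626 to 72208860, plus strand, 235 bases) and 1 named LDHA (MSTRG.14905.1, chromosome 11 from 18407174 to 18407537, minus strand, 364 bases). Both lie on the strand opposite to their gene, the first within the span of the PKM circRNA and the second beyond the end of the LDHA circRNAs. Both were listed at 0 in A549/DDP, A549 and HCC827/GR. In HCC827 the PKM transcript had 7.56 FPKM and the LDHA transcript 3.45 FPKM, so HCC827 was the only library of the 4 with either. HCC827 also had the most aligned bases, 5.24 gigabases against 4.62 in A549/DDP, 4.34 in A549 and 4.45 in HCC827/GR. Whether depth played a part was not tested. The mRNA levels of PKM and LDHA were not analysed here.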

How the data were processed

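Ribosomal RNA-depleted total RNA of 4 conditions was sequenced, 1 library each. The authors trimmed reads with Cutadapt and aligned them with Bowtie 2 and TopHat2, and the submitters' processing notes name TopHat. The deposited circRNA table holds the authors' estimated counts and FPKM. No source used here names its caller, counter or build. Of these counts, 28.5% to 40.8% per library are not whole numbers. The deposited lncRNA table holds the authors' StringTie FPKM and mean coverage (signal) of each transcript.

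Counts were summed per host gene and scaled to each library's circRNA total. Ratios have exact conditional Poisson 95% intervals on counts rounded to whole reads. Reads are not independent molecules, so these intervals cover counting error only. Where circRNAs of a gene share reads, as in LDHA and HIF1A, a read can enter the sum more than once. The intervals of such sums are too narrow even for counting error. For calls, 3 counts were added in each library, over host genes with at least 10 counts in the pair, at 2-fold or 0.5-fold. Exon lengths come from counts and FPKM. For LDHA the share of reads found in the outer circRNA only replaced that of each circRNA, since their reads overlap. The calls and intervals were tested on simulated Poisson counts. These hold no spread between replicates and no reads shared between circRNAs, so the test checks the code only. Alternatives were other scalings, FPKM, other minimums, counts added and folds, and single circRNAs. The genes, lists and naming rule were chosen with earlier results of these data known. Named are the members, list genes with at least 10 counts, the first 3 host genes of each library, the neighbours of PKM, and the 5 nearest patterns. Promoters are from RefSeq, GRCh38.p14. The work was done in Python 3.11.15 with scipy 1.17.1, numpy 2.4.6, matplotlib 3.10.9 and pandas 2.3.3.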

Additional observations from a re-analysis of the deposited data

Results flagged for a closer look

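The resistant lines differed from their parental lines in opposite directions for both genes, with counting intervals on opposite sides of 1. PKM circRNA counts were 0.679 times the A549 level in A549/DDP and 1.75 times the HCC827 level in HCC827/GR. LDHA circRNA counts were 0.828 times the A549 level in A549/DDP and 1.60 times the HCC827 level in HCC827/GR. With 1 library per condition the difference between the pairs was not tested, and the share of all host genes with these directions was not counted.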

How the results depend on the processing

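The 8 ratios of PKM and LDHA between resistant and parental lines and between lines kept their side of 1 under each alternative. The counting intervals of the LDHA sums are too narrow, since these sums hold shared reads more than once. Of 52 alternative values, 22 stayed within the counting interval. These include a minimum of 10 counts per circRNA, which could not change the 8 ratios, since each member circRNA was far above it. For A549/DDP over A549, the median-ratio scaling, aligned bases and FPKM gave PKM 0.651, 0.710 and 0.743 and LDHA 0.794, 0.866 and 0.906. For HCC827/GR over HCC827 they gave PKM 1.84, 1.56 and 1.67 and LDHA 1.68, 1.43 and 1.54. For HCC827/GR over A549/DDP they gave PKM 0.874, 0.815 and 0.776 and LDHA 1.45, 1.36 and 1.30. For HCC827 over A549, the median ratio and FPKM gave PKM 0.309 and 0.345 and LDHA 0.686 and 0.764. Leaving the 10 top host genes out of the total gave, for HCC827 over A549, PKM 0.356 and LDHA 0.791, and for HCC827/GR over A549/DDP, PKM 0.921 and LDHA 1.53. The ratio of LDHA in HCC827 over A549/DDP, 1.01 by the circRNA total, was 0.863, 0.949, 0.944 and 0.843 by the median ratio, aligned bases, the total without the 10 top host genes and FPKM, and that in HCC827/GR over A549 was 1.15, 1.17, 1.28 and 1.18, both chosen after seeing the data. Without its most abundant circRNA, LDHA was at 1.71 in HCC827/GR over HCC827 and at 1.69 over A549/DDP. With the most abundant circRNA of each gene alone, chosen after seeing the data, these were 1.51 and 1.52. PKM has 1 circRNA, so leaving that out gave no value.

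By summed FPKM, PKM ranked 4 in A549, 7 in HCC827/GR and 13 in HCC827, and LDHA ranked 6 in A549/DDP, 7 in A549, 4 in HCC827/GR and 3 in HCC827. By the most abundant single circRNA, PKM ranked 2 in A549/DDP, 1 in HCC827/GR and 3 in HCC827, and LDHA 11 in HCC827/GR. By the highest FPKM of a single circRNA, chosen after seeing the data, PKM ranked 2 and LDHA 11 in A549/DDP, and LDHA 5 in HCC827. At 4-fold, 7 host genes were higher and 50 lower in A549/DDP over A549, and 76 and 403 in HCC827/GR over HCC827. At 4-fold, 47 were higher and 123 lower in HCC827 over A549, and 111 and 402 in HCC827/GR over A549/DDP. At 2-fold, 360 host genes were higher in HCC827 over A549, and 208 with the median ratio, while 284 and 373 were lower. The scaling moved the median log2 ratio of all host genes between -0.40 and -0.16 in HCC827/GR over HCC827 and between -0.03 and 0.10 in A549/DDP over A549. The counts of list members past 2-fold did not change with the median ratio or without the minimum. Without the minimum the same hosts of each list were tested, so that setting could change nothing. No paired analysis was possible because each condition had 1 library, and no replicate could be left out.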
